A study of Mus musculus with 2 samples.

Results

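The 8 genes studied here belong to the podocyte's filtration junction and its foot processes, and were followed through 2 single-cell libraries of newborn mouse kidney: Nphs1, Kirrel, Podxl, Ptpro, Magi2, Cd2ap, Actn4 and Synpo. They were taken by symbol from the list of measured genes, 8 of 32285, and none of them was used to assign a cell to a class. Both libraries came from kidneys at P0, the day of birth, with the genotype Rbpj c/+ ; Foxd1cre/+, so they formed 1 group with n = 2. In this genotype 1 copy of Rbpj, the DNA-binding partner of Notch receptors, is conditional, and Cre recombinase is expressed from Foxd1, a gene of the kidney stroma whose RNA was also counted in podocytes here. Since kidneys of another genotype were not analysed here, the values describe this genotype alone. The labels do not say whether the libraries came from separate animals or from pools. The p-values measure only how far differences between classes varied across these 2 libraries, fitted jointly over all classes and blocked by library.

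Podocytes are the epithelial cells that wrap the glomerular capillaries, and their interlocking foot processes leave narrow gaps bridged by the slit diaphragm. Nephrin and its relatives of the immunoglobulin superfamily span the gap, scaffold and adaptor proteins hold them to the actin cytoskeleton inside the foot process, and charged surface proteins keep the apical membranes apart. Podocytes arise from nephron progenitors through the renal vesicle and S-shaped body, so a newborn mouse kidney, in which nephrons are still forming, holds cells at all of these stages.

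Cells were barcodes with at least 3000 unique molecular identifiers (UMIs, each 1 counted RNA molecule), 500 genes or more and no more than 20% mitochondrial UMIs. There were 5529 such cells in replicate 1, with a median of 15016 UMIs, and 4206 in replicate 2, with a median of 20007.5 UMIs, from 200331687 and 173166168 UMIs in all. In all, 6 cell barcodes occurred in both libraries. Gates on 75 marker genes of 13 classes assigned 354 and 178 cells to podocytes, by markers that included Clic5, Thsd7a, Tdrd5, Rasl11a, Col4a3 and Col4a4. Glomerular precursors, 257 and 140 cells, had at least 1 UMI of Wt1 and of Ndnf, a pair of genes of the proximal S-shaped body, without passing the podocyte gate or that of another class except early nephron. Of the podocytes, 23 and 5 lay at a scaled marker rate of 0.2 to 0.3, just above the cutoff of 0.2, and 38 and 15 precursors had a rate of 0.1 or more, 6 and 2 of them at 0.2 or more without meeting the other conditions of the gate. The podocyte markers summed to 10375 and 10760 counts per 1000000 UMIs (CPM) in podocytes, with all 7 markers detected, against 591 and 510.4 CPM in precursors and 29.9 and 31.4 CPM in nephron progenitors. Wt1 and Ndnf, which gate the precursors, summed to 1962 and 1666 CPM in podocytes and to 971 and 665 CPM in precursors. The marker lists of the 11 other classes summed to at most 84.1 CPM in podocytes, for the early nephron list in replicate 1. A further 2077 and 1686 cells passed no gate.

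The promoter windows of 4 members are shown to give the range of CG content among the members. Each runs from 250 bases before to 50 bases after an annotated RefSeq start on GRCm38.p6, 5′ to 3′ on the gene's strand, with CG dinucleotides in capitals. Windows were found for 6 of the 8 members. Nphs1 and Ptpro had most of their counts in podocytes, and their windows lie at chr7:30459808-30460107 and chr6:137252049-137252348 on the plus strand.
Nphs1: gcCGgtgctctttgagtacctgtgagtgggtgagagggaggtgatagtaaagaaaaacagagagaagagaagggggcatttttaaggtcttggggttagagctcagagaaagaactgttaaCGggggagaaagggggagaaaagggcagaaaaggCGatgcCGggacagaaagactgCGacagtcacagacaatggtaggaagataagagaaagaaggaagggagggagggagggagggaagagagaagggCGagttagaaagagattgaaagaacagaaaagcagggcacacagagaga
Ptpro: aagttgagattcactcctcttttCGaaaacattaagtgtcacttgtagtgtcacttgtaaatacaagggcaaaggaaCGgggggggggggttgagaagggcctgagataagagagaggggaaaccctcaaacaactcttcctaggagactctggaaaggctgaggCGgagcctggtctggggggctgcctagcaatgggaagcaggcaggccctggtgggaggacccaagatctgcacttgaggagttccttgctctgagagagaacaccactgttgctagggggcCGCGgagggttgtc
Actn4 and Cd2ap were counted in every class, and their windows lie at chr7:28962283-28962582 and chr17:42876375-42876674 on the minus strand.
Actn4: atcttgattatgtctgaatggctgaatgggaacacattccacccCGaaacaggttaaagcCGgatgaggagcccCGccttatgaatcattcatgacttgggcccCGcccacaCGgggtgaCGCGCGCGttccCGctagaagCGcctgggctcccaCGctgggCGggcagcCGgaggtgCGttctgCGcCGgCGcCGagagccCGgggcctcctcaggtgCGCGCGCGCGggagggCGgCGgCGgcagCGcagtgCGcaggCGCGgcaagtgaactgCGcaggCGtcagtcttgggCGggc
Cd2ap: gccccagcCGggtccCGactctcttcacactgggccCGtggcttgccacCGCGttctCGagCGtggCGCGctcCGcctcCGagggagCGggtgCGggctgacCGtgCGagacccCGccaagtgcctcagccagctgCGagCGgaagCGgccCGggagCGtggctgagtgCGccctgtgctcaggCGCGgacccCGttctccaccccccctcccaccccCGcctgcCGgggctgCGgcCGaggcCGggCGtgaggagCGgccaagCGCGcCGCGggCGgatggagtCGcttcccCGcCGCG
The Nphs1 window held 6 CG and the Ptpro window 5, against a median of 7 over 32851 RefSeq windows of 300 bases. The Actn4 window held 35 CG and the Cd2ap window 41, more than in 93.0% and 96.5% of windows. The Kirrel window held 28 CG, and the annotated starts of Magi2 differed, with 29 CG at chr5:19226796-19227095 and 4 at chr5:19907268-19907567. The RefSeq start of Nphs1 lies inside the gene as GENCODE M21 gives it. The 3′ counts do not say which start was used, and whether CG content bears on the levels was not tested.

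All 8 members had their highest level in podocytes in both libraries, but they fell into unlike patterns. Nphs1, Podxl, Ptpro, Magi2 and Synpo rose by 4.14 to 5.68 on the log2 scale from precursors to podocytes, whereas Cd2ap, Kirrel and Actn4 rose by 1.86 to 2.12. Cd2ap and Actn4 were already counted in most classes, and Kirrel chiefly in stroma, mural cells, nephron progenitors and early nephron cells. Podocytes held 4.54% and 2.83% of the UMIs in cells. They held 90.6% and 83.9% of the Nphs1 counts, 84.8% and 84.9% of Ptpro, 87.6% and 84.9% of Magi2, 77.4% and 64.8% of Synpo and 74.4% and 68.8% of Podxl. Of Kirrel they held 25.3% and 13.1%, of Cd2ap 14.5% and 10.8%, and of Actn4 14.4% and 7.72%.

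**Figure D1:**
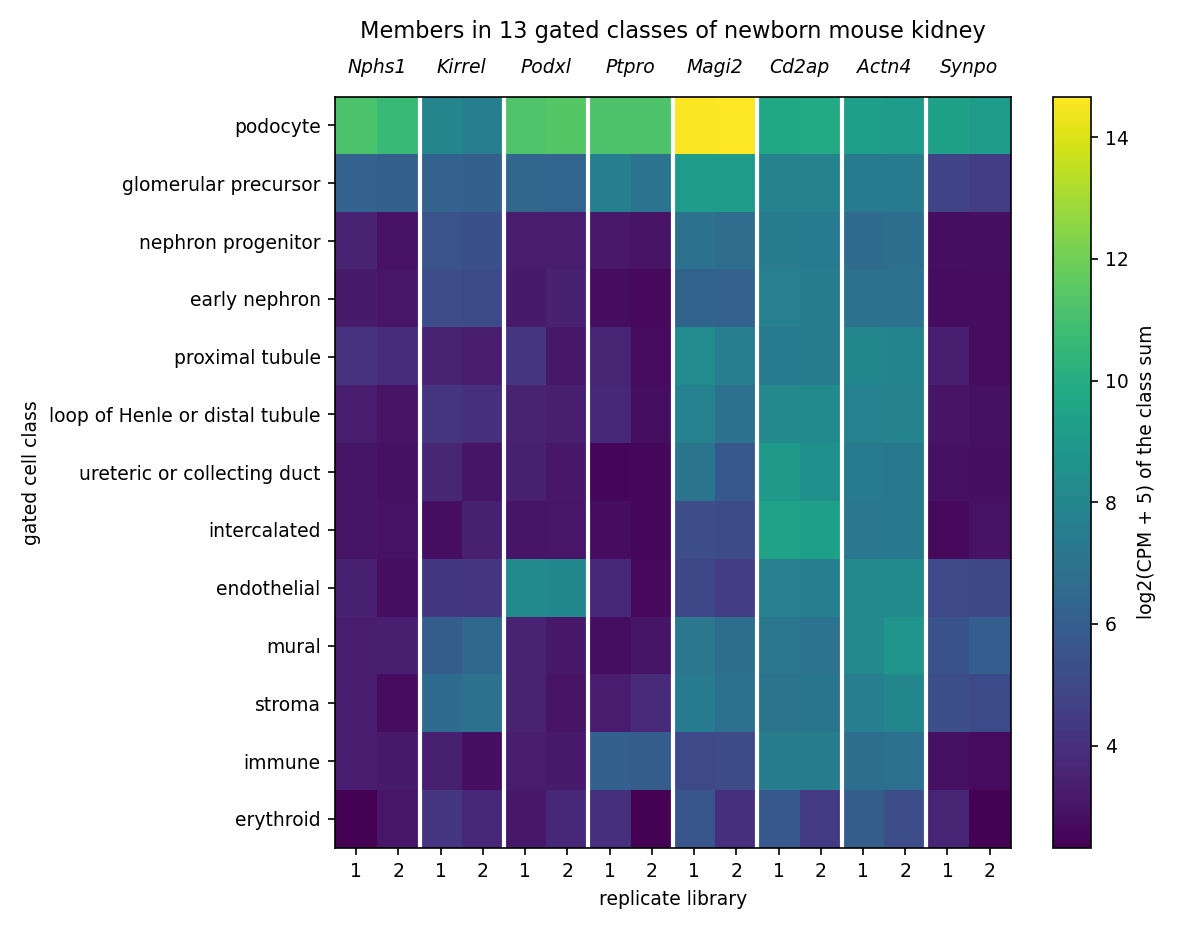
Level of each gene, as log2(CPM + 5) of the counts summed per library, in 13 gated classes (rows) and 2 replicate libraries (paired columns); brighter cells are higher. The podocyte row is the brightest for all 8 genes, Podxl is also bright in endothelium and Cd2ap in intercalated cells, and Actn4 and Cd2ap are visible in nearly every row.

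Nphs1 encodes nephrin, the adhesion protein that spans the slit. The gene lies at chr7:30458315-30487223 (GRCm38, plus strand, GENCODE M21) and its level in podocytes was 2324 CPM in replicate 1 and 1567 CPM in replicate 2. In precursors it was 67.6 and 63.2 CPM and in nephron progenitors 6.84 and 2.72 CPM. The 3 stages did not overlap, and no other class exceeded the 12.4 and 9.73 CPM of proximal tubule cells. Barcodes under 100 UMIs, which hold free RNA rather than cells, had 76.8 and 44.2 CPM of Nphs1, more than any class but podocytes in replicate 1, so levels of a few CPM outside the glomerular classes are not read as expression. From precursors to podocytes Nphs1 rose by 4.999 ± 0.28 (log2 fold change ± SE, edgeR quasi-likelihood test, Benjamini-Hochberg adjusted p = 4.48e-10, n = 2 libraries). The antisense gene Nphs1os shares exon sequence with Nphs1 and had 1.96 and 2.47 CPM in podocytes.

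Kirrel encodes Neph1, which pairs with nephrin across the slit, and lies at chr3:87078593-87174747 on the minus strand. Podocytes had 243 and 194 CPM, precursors 69.8 and 63.7 CPM and nephron progenitors 38.9 and 35.6 CPM. Stroma had 94.4 and 118 CPM and mural cells, the smooth muscle and pericytes of vessel walls, 58.4 and 83.0 CPM. Endothelium had 15.03 and 14.6 CPM, and the tubule, duct, intercalated, immune and erythroid classes at most 14.5 CPM. These levels lay under the 31.8 and 24.6 CPM of barcodes under 100 UMIs. The podocyte values lay above all others, stroma lay above precursors, and the mural and precursor ranges overlapped. Kirrel rose by 1.86 ± 0.22 on the log2 scale from precursors to podocytes (edgeR adjusted p = 1.75e-06).

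Podxl encodes podocalyxin, the heavily charged sialomucin of the apical foot process membrane, and lies at chr6:31519488-31563981 on the minus strand. Its levels in podocytes were 2452 and 2760 CPM, in precursors 78.9 and 76.7 CPM and in nephron progenitors 4.66 and 4.47 CPM. Barcodes under 100 UMIs had 102.7 and 78.8 CPM of Podxl, above the precursors in both libraries. Endothelium, where podocalyxin lines the vessel lumen, had 297 and 268 CPM. Endothelium thus ranked below podocytes and above precursors in both libraries, with no overlap. The rise from precursors to podocytes was 5.22 ± 0.36 on the log2 scale (edgeR adjusted p = 3.32e-09).

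Ptpro encodes a receptor-type tyrosine phosphatase of the podocyte's apical surface, also known as GLEPP1, and lies at chr6:137252319-137463233 on the plus strand. It had 2373 and 2366 CPM in podocytes, 193 and 125 CPM in precursors and 4.04 and 2.78 CPM in nephron progenitors. Immune cells had 64.4 and 57.9 CPM, and no other class exceeded 10.9 CPM, the level of 29 erythroid cells in replicate 1. Podocytes, precursors and immune cells were ordered alike in both libraries and did not overlap. Ptpro rose by 4.14 ± 0.45 on the log2 scale from precursors to podocytes (edgeR adjusted p = 7.7e-07).

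Magi2 encodes a scaffold with PDZ and WW domains that binds the tail of nephrin, and its gene spans 1477757 bases at chr5:19227036-20704792 on the plus strand. It took 2.46% and 2.60% of all podocyte UMIs, 24585 and 25970 CPM, and ranked 2 among all genes there. Whether reads from introns were counted is not given in the sources used here. Precursors had 538 and 555 CPM, nephron progenitors 121 and 99.8 CPM, proximal tubule cells 303 and 189 CPM and endothelium 27.4 and 18.5 CPM. Podocytes and precursors stood above every other class, while the ranges of proximal tubule and of loop of Henle or distal tubule cells, with 211 and 118 CPM, overlapped. The barcodes under 100 UMIs had 707 and 478 CPM of Magi2. The rise from precursors to podocytes was 5.68 ± 0.32 on the log2 scale (edgeR adjusted p = 4e-10).

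Cd2ap encodes the adaptor that ties nephrin to actin and endocytosis, and lies at chr17:42792951-42876665 on the minus strand. Podocytes had 823 and 926 CPM. Intercalated cells of the collecting system, which secrete acid or base, had 692 and 615 CPM, and ureteric or collecting duct cells 503 and 359 CPM. Precursors had 223 and 223 CPM and nephron progenitors 180.5 and 170.0 CPM. Barcodes under 100 UMIs had 158.5 and 130.4 CPM of Cd2ap. This adaptor was thus present before the glomerular fate, at a level not far above free RNA. The first 5 classes in order of level were podocytes, intercalated cells, ureteric or collecting duct cells, loop of Henle or distal tubule cells and precursors, and their ranges did not overlap. Cd2ap rose by 2.12 ± 0.14 on the log2 scale from precursors to podocytes (edgeR adjusted p = 1.57e-09).

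Actn4 encodes the actin cross-linker alpha-actinin-4 and lies at chr7:28893248-28962340 on the minus strand. It had 624 and 556 CPM in podocytes, 170.3 and 169 CPM in precursors and 92.9 and 107 CPM in nephron progenitors. Barcodes under 100 UMIs had 176 and 157 CPM of Actn4, above nephron progenitors in both libraries and above precursors in replicate 1. Mural cells had 279.5 and 429.7 CPM and endothelium 277 and 281 CPM, and these ranges overlapped below that of podocytes. Actn4 rose by 1.95 ± 0.15 on the log2 scale from precursors to podocytes (edgeR adjusted p = 1.47e-08). Its exons overlap those of Capn12 on the other strand, which had 1.81 and 1.37 CPM in podocytes.

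Synpo encodes synaptopodin, an actin-associated protein of foot processes and dendritic spines, and lies on chromosome 18. Podocytes had 658 and 547 CPM, precursors 23.2 and 18.7 CPM and nephron progenitors 1.81 and 2.01 CPM. Barcodes under 100 UMIs had 26.6 and 17.9 CPM of Synpo, above the precursors in replicate 1 and just below them in replicate 2. Mural cells had 37.6 and 59.4 CPM, stroma 33.8 and 29.0 CPM and endothelium 28.3 and 27.2 CPM, all above precursors. Synpo rose by 4.99 ± 0.27 on the log2 scale from precursors to podocytes (edgeR adjusted p = 3.07e-10). The 3 classes of the vessel wall and interstitium did not overlap with one another or with precursors, but their neighbouring values were close.

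For the step from precursors to podocytes, 8 of 8 members were higher, in a comparison in which 20.9% of the 17017 tested genes were higher and 45.5% differed in either direction. The members' median was 4.57 on the log2 scale, against -0.08 over all tested genes. The members are not gate genes, but precursors are by definition cells that did not pass the podocyte gate, and the size of the step differed with where that boundary lay. With precursors restricted to a podocyte marker rate under 0.1, an alternative chosen after the data were seen, Ptpro rose by 6.12, Podxl by 7.10 and Magi2 by 7.08. Nphs1 then rose by 5.94 and Synpo by 6.03, while Cd2ap rose by 2.26, Kirrel by 1.88 and Actn4 by 2.06. With probable doublets removed the Magi2 rise was 6.51, and at a gate cutoff of 0.1 the Ptpro rise was 4.78.

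The earlier step, from nephron progenitors to precursors, separated the members further. Of the 8 members, 7 were higher in precursors, against 12.7% of all tested genes higher and 20.4% in either direction, with a members' median of 2.77 against 0.00. Ptpro rose most, by 5.42 ± 0.52 on the log2 scale (edgeR adjusted p = 4.84e-07). Podxl rose by 3.97 ± 0.36 (adjusted p = 3.2e-07), Nphs1 by 3.72 ± 0.29 (adjusted p = 6.11e-08), Synpo by 3.33 ± 0.30 (adjusted p = 2.98e-07) and Magi2 by 2.21 ± 0.27 (adjusted p = 9.18e-06) in the same edgeR test. Cd2ap, Kirrel and Actn4 moved little. Kirrel rose by 0.72 ± 0.22 (edgeR adjusted p = 0.023) and Actn4 by 0.64 ± 0.15 (edgeR adjusted p = 0.0038), and Cd2ap was at 0.22 ± 0.13 with an edgeR adjusted p of 0.262. The Kirrel call was lost without the library as a block (0.72, adjusted p = 0.063), at a limit of 10% mitochondrial UMIs (0.72, adjusted p = 0.0904) and with free RNA subtracted (0.78, adjusted p = 0.576). The Magi2 call was lost with free RNA subtracted (2.81, adjusted p = 0.0508) and in precursors under a podocyte marker rate of 0.1 (0.81, adjusted p = 0.059). In those precursors Ptpro was at 3.44, Nphs1 at 2.76, Podxl at 2.10 and Synpo at 2.29. The free RNA subtraction, scaled by haemoglobin, exceeded the whole count of Nphs1, Podxl, Synpo and Ptpro in progenitors of replicate 1, so their folds under it are not given. Those genes had 1.81 to 6.84 CPM in progenitors, below the barcodes under 100 UMIs. The size and order of their reported rises therefore depend on progenitor levels that are not read as expression. In precursors, Podxl also lay below those barcodes in both libraries, and Nphs1, Synpo, Magi2 and Actn4 did so in replicate 1. The precursor end of these rises is thus not clear of free RNA either. Magi2 was at 1.43 without probable doublets, and Ptpro was at 4.73 and Podxl at 4.65 at gate cutoffs of 0.1 and 0.4. Without replicate 1, Nphs1 was at 4.43.

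**Figure D2:**
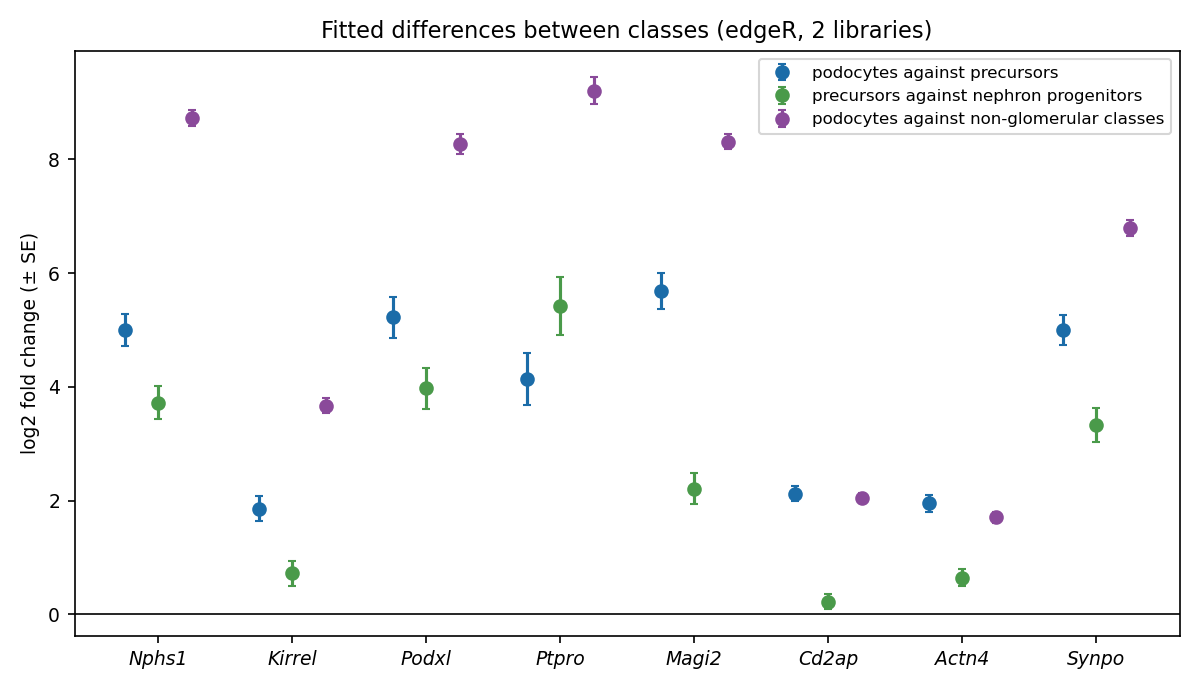
Fitted log2 fold change of each gene (points) with its standard error (bars) for podocytes against precursors (blue), precursors against nephron progenitors (green) and podocytes against the mean of the non-glomerular classes (purple), edgeR over 2 libraries. For Ptpro the green point, 5.42, lies above the blue point, 4.14, and Cd2ap, Actn4 and Kirrel lie lowest in all 3.

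Within the precursor class the counts were concentrated in few cells. The 10% of precursors with the most counts held 75.9% and 59.7% of its Nphs1 counts, 84.2% and 83.3% of Podxl, 88.1% and 82.8% of Magi2 and 82.5% and 86.6% of Ptpro. For Cd2ap the same share was 39.0% and 35.9%. The alternative without probable doublets removed 12 and 13 precursors and gave a smaller Magi2 rise from progenitors to precursors. The shares were not repeated without those cells, so probable doublets may be among the cells with the most counts. The median precursor had no count of Nphs1, Podxl, Ptpro or Synpo in either library. In podocytes the median cell had 3087 and 1791 CPM of Nphs1, above the class sum in both libraries. The 10% of podocytes with the most counts held 36.5% and 28.6% of the Nphs1 counts, 43.1% and 38.5% of Podxl, 52.7% and 37.2% of Magi2 and 51.2% and 39.2% of Ptpro. These shares were lower than in precursors for each of the 4 genes, while for Cd2ap they were 42.8% and 36.7%. Cells were ranked by raw counts, so the shares in both classes also hold differences in depth between cells. The part of all UMIs in the top cells was not computed. Per cell, Magi2 in replicate 1 podocytes ran from 6841 CPM at percentile 10 to 37786 CPM at percentile 90.

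Shares of cells with at least 1 UMI were compared after each cell was thinned to 3000 UMIs, which left out no cell. Magi2 was found in 99.2% and 99.4% of podocytes, Nphs1 in 97.7% and 96.1%, Podxl in 97.2% and 96.1% and Ptpro in 96.6% and 98.3%. Cd2ap was found in 87.6% and 90.4%, Synpo in 82.2% and 77.5%, Actn4 in 79.9% and 74.7% and Kirrel in 43.8% and 44.9%. The exact 95% binomial interval of Nphs1 ran from 95.6% to 99.0% in replicate 1 and from 92.1% to 98.4% in replicate 2; such intervals cover counting error only. Unthinned, at median depths of 9237.5 and 13697 UMIs, Kirrel was found in 81.9% and 87.1% of podocytes and Nphs1 in 99.4% and 99.4%.

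In precursors, thinned to the same depth, Nphs1 was found in 16.3% and 16.4% of cells, Podxl in 14.4% and 14.3%, Ptpro in 20.6% and 12.9% and Synpo in 7.004% and 6.43%. Nephron progenitors, taken as the background, gave 1.68% and 1.11% for Nphs1, 1.68% and 0.55% for Podxl, 0.67% and 0.28% for Ptpro and 0.50% and 0.28% for Synpo. The precursor shares of these 4 genes stood above that background in both libraries. For Magi2 they did not: 24.1% and 25.7% of precursors had a UMI against 26.0% and 21.9% of nephron progenitors, although the summed level was higher in precursors. Unthinned, at median depths of 23051 and 35614.5 UMIs, 42.8% and 43.6% of precursors had a UMI of Nphs1.

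**Figure D3:**
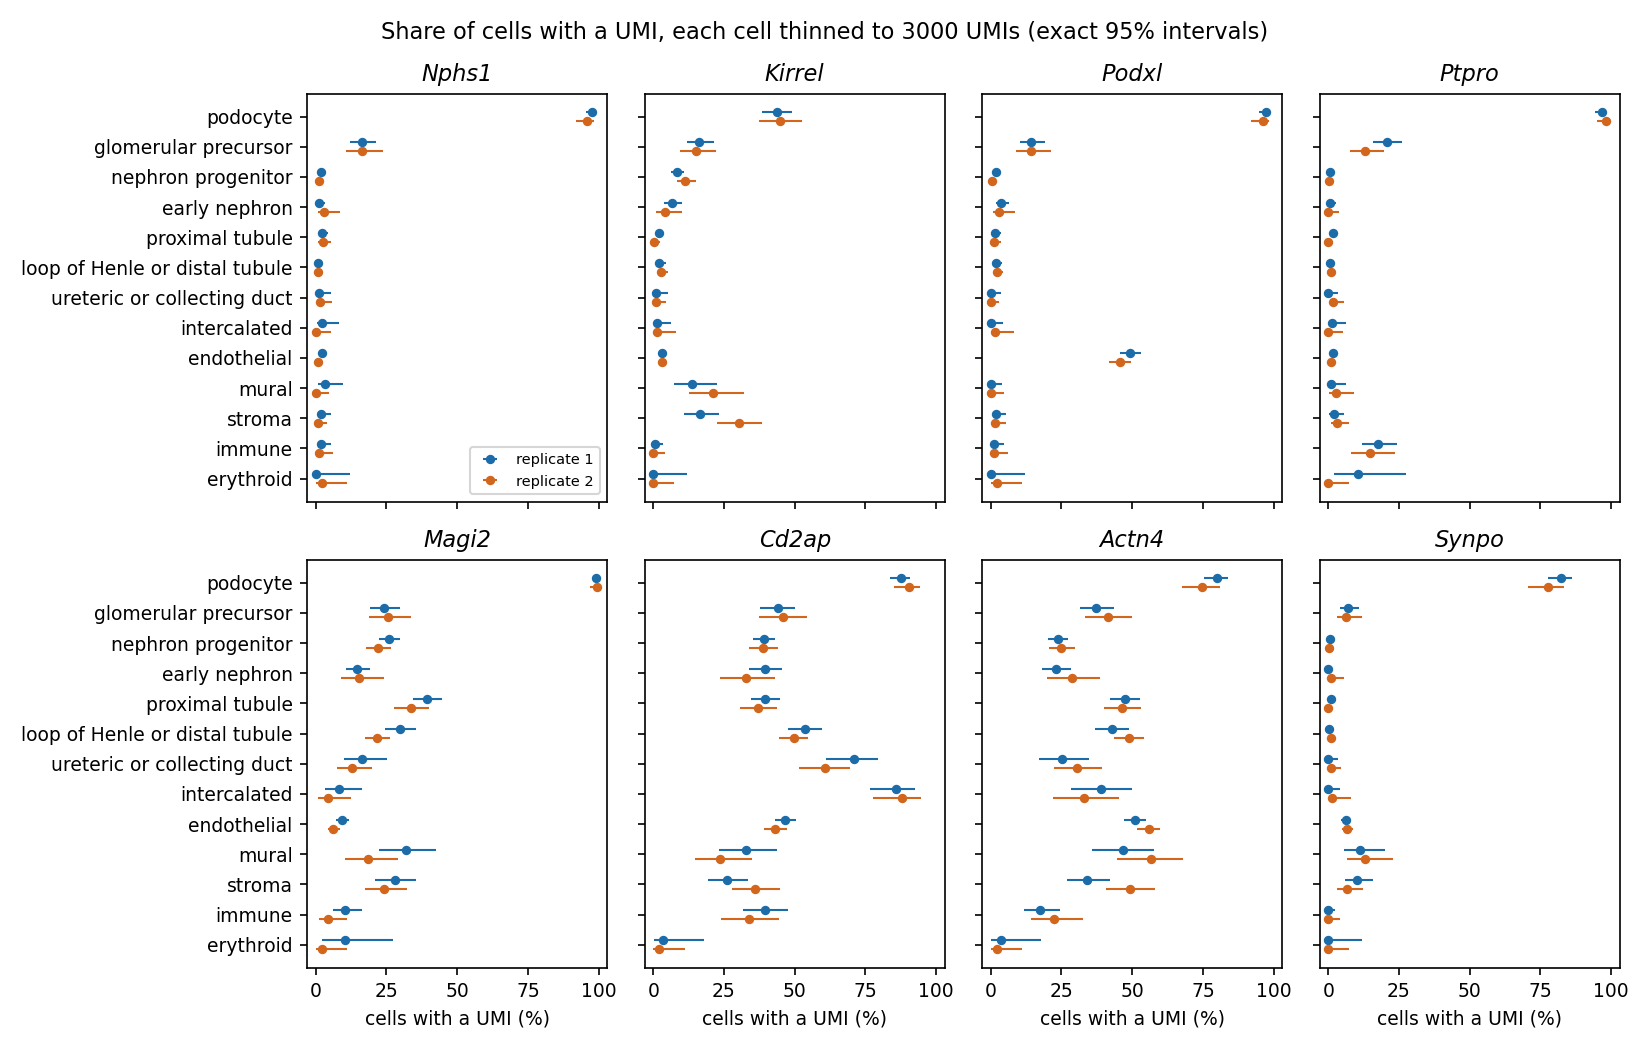
Share of cells with at least 1 UMI of each gene after thinning every cell to 3000 UMIs, by gated class (rows), in replicate 1 (blue) and replicate 2 (orange), with exact 95% binomial intervals as bars. Podocytes lie at 96.1% or more for Nphs1, Podxl, Ptpro and Magi2, endothelium reaches 49.3% and 45.7% for Podxl, and intercalated cells reach 85.9% and 88.1% for Cd2ap.

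The members were found together in single podocytes. The median podocyte had 7 of the 8 at 3000 UMIs, 96.6% and 95.5% had at least 5, and 27.97% and 28.7% had all 8. Nphs1, Podxl, Ptpro and Synpo, grouped after their levels had been seen, were all present in 79.1% and 74.2% of podocytes. In precursors all 4 were present in 2.33% and 1.43% of cells, 15.6% and 15.7% had at least 2 of them, and 68.5% and 73.6% had none. Few precursors therefore held the whole group at this depth, and most held none of it.

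The order in which the members approached their podocyte level was described by dividing precursors and podocytes by the podocyte marker rate, which uses gate genes only. These bins were chosen after the levels had been seen, and 4 of the 7 in replicate 2 held 15 cells each, so the values carry no test. In precursors at a rate of 0.1 or more, 38 and 15 cells, Ptpro stood at 51.2% and 42.5% of its level in the podocytes of highest rate (0.7 or more, 193 and 95 cells). Cd2ap stood at 44.7% and 40.5%, Actn4 at 42.3% and 39.3% and Kirrel at 31.0% and 29.3%. Podxl stood at 18.7% and 20.1%, Synpo at 15.7% and 15.7%, Nphs1 at 13.1% and 16.7% and Magi2 at 10.4% and 12.4%. In this bin Ptpro led the members that were nearly absent from progenitors, and Magi2 came last, in both libraries. The order was not the same in every bin: at 0.05 to 0.1 in replicate 2, Synpo at 9.18% and Nphs1 at 6.79% stood above Ptpro at 5.41%, and Podxl at 2.75% below Magi2 at 3.70%. Those 15 cells had a median of 60375 UMIs, against 26291 in the same bin of replicate 1. The bins were not repeated without probable doublets. In podocytes at 0.2 to 0.4 of replicate 2, Synpo at 32.2% stood below Magi2 at 34.6%. At rates above 0 and under 0.05, 148 and 95 cells, Ptpro was at 0.87% and 0.75% and Nphs1 at 0.70% and 1.59%, whereas Cd2ap was at 19.5% and 19.8%. In podocytes at 0.4 to 0.7 all 8 members were between 68.2% and 95.3% of the final level in replicate 1, and between 69.9% and 85.5% in replicate 2.

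**Figure D4:**
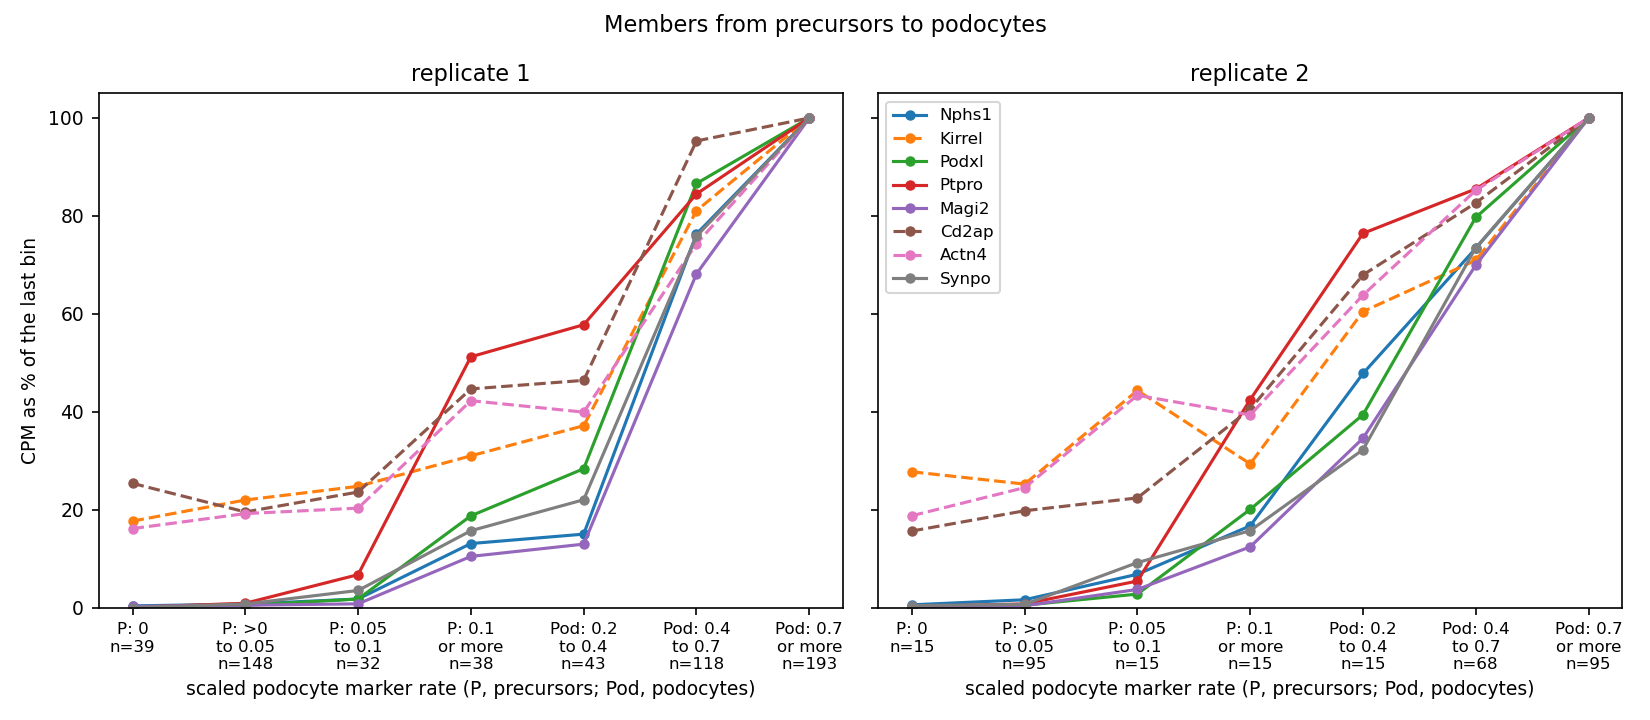
Level of each gene, in CPM as a percentage of its level in the last bin, across 4 bins of precursors (P) and 3 bins of podocytes (Pod) ordered by scaled podocyte marker rate, with the number of cells n under each bin; left, replicate 1, right, replicate 2. Ptpro reaches 51.2% and 42.5% in the precursors of highest rate, where Nphs1, Podxl, Synpo and Magi2 lie between 10.4% and 20.1%.

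The same bins gave the genes around this step. Lhx1, a transcription factor of the renal vesicle and 1 of the gate markers, had 693 and 558 CPM in precursors at a rate above 0 and under 0.05, and 12.5 and 4.45 CPM in podocytes at 0.7 or more. Pax8, a factor of early nephron epithelium, had 638 and 497 CPM in the former and 33.7 and 40.03 CPM in the latter. A sum of 5 genes of dividing cells (Mki67, Top2a, Ccnb1, Cdk1 and Birc5) was 1409.9 and 1016 CPM against 42.2 and 22.8 CPM. All 3 levels were higher at the low end of the marker rate in both libraries, and none was tested. The early nephron markers summed to 1385 and 1107 CPM in precursors, and 153 and 53 precursors also reached the early nephron rate of 0.2.

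Against the mean of the 11 non-glomerular classes, 8 of 8 members were higher in podocytes, where 24.3% of tested genes were higher and 41.2% differed in either direction. The members' median was 7.53 against 0.05. Ptpro was higher by 9.20 ± 0.24, Nphs1 by 8.73 ± 0.14, Magi2 by 8.31 ± 0.13, Podxl by 8.27 ± 0.17 and Synpo by 6.79 ± 0.14 on the log2 scale. Outside endothelium for Podxl and immune cells for Ptpro, no non-glomerular class exceeded 14.1 CPM of Nphs1, Podxl or Ptpro. Such levels lay below the barcodes under 100 UMIs, so the order of these differences is not read as an exact degree of restriction. Kirrel was higher by 3.67 ± 0.14, Cd2ap by 2.05 ± 0.08 and Actn4 by 1.70 ± 0.09, and the adjusted p of edgeR was at most 2.58e-11 for any member. The free RNA subtraction exceeded the whole count of at least 1 member in 8 of 24 class sums, all of them non-glomerular, and its differences are not given here. At a gate cutoff of 0.4 it was 4.38 for Kirrel, and at a limit of 10% mitochondrial UMIs it was 8.49 for Ptpro. Without replicate 1 it was 10.42 for Ptpro and 7.56 for Synpo, and without replicate 2 it was 9.55 for Nphs1.

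Outside the podocyte lineage, endothelium was compared because podocalyxin is an established endothelial protein. In all, 3 members were higher in endothelium than in the mean of the other non-glomerular classes, against 27.7% of tested genes higher, and 1 was lower, against 14.8% lower. Podxl was higher by 5.55 ± 0.19 on the log2 scale (edgeR adjusted p = 2.17e-14), Synpo by 2.60 ± 0.20 (edgeR adjusted p = 2.25e-09) and Actn4 by 0.68 ± 0.10 (edgeR adjusted p = 2.34e-05). Magi2 was lower by 2.02, as a log2 fold change of -2.02 ± 0.24 (edgeR adjusted p = 1.27e-06), a call lost under the free RNA subtraction (-10.70, edgeR adjusted p = 1), which exceeded the Magi2 count of both endothelial libraries, so that this value is set by counts of 0. Without replicate 1, Synpo was at 3.56. Nphs1, Cd2ap, Kirrel and Ptpro did not pass the threshold. Podxl had a UMI in 49.3% and 45.7% of endothelial cells at 3000 UMIs, against 1.29% and 1.12% of immune cells. The podocyte markers summed to 583 and 537 CPM in endothelium, most of it Thsd7a at 383 and 318 CPM and Clic5 at 139 and 126 CPM, while Nphs1 was at 5.997 and 1.78 CPM.

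The other 10 non-glomerular classes were compared after their levels had been seen, each against the mean of the rest in the same fit. Intercalated cells had 1 member higher, Cd2ap by 1.82 ± 0.09 (edgeR adjusted p = 5.97e-12), against 24.1% of tested genes higher, and ureteric or collecting duct cells had 1 higher, Cd2ap by 1.16 ± 0.09 (edgeR adjusted p = 7.57e-09), against 22.4%. Immune cells had 1 higher, Ptpro by 4.28 ± 0.41 (edgeR adjusted p = 6.53e-08), against 23.2%. Ptpro had a UMI in 17.4% and 14.6% of immune cells, against 0.70% and 1.11% of loop of Henle or distal tubule cells. Stroma had 3 higher, against 20.3%: Kirrel by 2.82 ± 0.18 (edgeR adjusted p = 2.32e-10), Synpo by 2.71 ± 0.27 (edgeR adjusted p = 1.99e-07) and Magi2 by 0.73 ± 0.20 (edgeR adjusted p = 0.00849). Mural cells had 4 higher, against 16%: Synpo by 3.58 ± 0.27 (edgeR adjusted p = 5.19e-09), Kirrel by 2.34 ± 0.21 (edgeR adjusted p = 6e-08), Actn4 by 1.12 ± 0.11 (edgeR adjusted p = 1.31e-07) and Magi2 by 0.76 ± 0.21 (edgeR adjusted p = 0.0128). Magi2 in stroma and mural cells lay below the 707 and 478 CPM of barcodes under 100 UMIs. In mural cells of both libraries the free RNA subtraction exceeded its whole count. Outside podocytes and precursors, Synpo and Actn4 were highest in mural cells, Actn4 there overlapping with endothelium, and Kirrel was highest in stroma. Without replicate 1, Synpo was at 4.7995 in mural cells and at 3.54 in stroma, Ptpro was at 5.60 in immune cells, and Ptpro was there at 3.57 under a limit of 10% mitochondrial UMIs.

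Proximal tubule cells had 3 members higher, against 31% of tested genes: Magi2 by 1.96 ± 0.17 (edgeR adjusted p = 1.15e-08), Nphs1 by 1.64 ± 0.24 (edgeR adjusted p = 1.04e-05) and Actn4 by 0.66 ± 0.10 (edgeR adjusted p = 2.73e-05). Both Magi2 and Nphs1 were higher in the barcodes under 100 UMIs than in these cells, and Magi2 also than in loop of Henle or distal tubule cells. Loop of Henle or distal tubule cells had 3 higher, Magi2, Cd2ap and Actn4, against 25.3%, nephron progenitors 1, Kirrel, against 29.8%, early nephron cells 1, also Kirrel, against 27.7%, and erythroid cells none, against 4.08%. Members were lower as well. Immune cells had 4 lower (Synpo, Magi2, Kirrel and Actn4), against 17.7% of tested genes, and intercalated cells 4 (Podxl, Synpo, Magi2 and Kirrel), against 11.9%. Nephron progenitors had 4 lower (Podxl, Synpo, Cd2ap and Actn4), against 16.8%, and early nephron cells 4 (Podxl, Synpo, Actn4 and Ptpro), against 15.2%. Ureteric or collecting duct cells had Synpo and Kirrel lower, against 11.8%, and so had loop of Henle or distal tubule cells, against 14%. Proximal tubule cells had 1 lower, Kirrel, against 17.2%. Cd2ap was the 1 member lower in stroma, against 13.7%, in mural cells, against 8.78%, and in erythroid cells, against 1.36%. Wherever Podxl, Synpo, Ptpro or Kirrel was lower, its level lay below that of the barcodes under 100 UMIs. Those calls set levels not read as expression against a mean that held higher classes. Where Actn4 or Magi2 was lower, its level also lay below those barcodes, which had 176 and 157 CPM of Actn4 and 707 and 478 CPM of Magi2. The same held for Cd2ap in mural and erythroid cells. Podxl had 4.66 and 4.47 CPM in nephron progenitors, and its mean included endothelium at 297 and 268 CPM. Synpo had 1.81 and 2.01 CPM in progenitors, and its mean included mural cells at 37.6 and 59.4 CPM. The lower Ptpro call rested on 17 and 7 counts in early nephron cells. Of the 42 calls in these 10 classes, 21 held under every alternative with a test, among them those of Magi2, Nphs1 and Actn4 in proximal tubule cells. In intercalated cells Podxl and Magi2 were higher in place of lower at a limit of 10% mitochondrial UMIs (1.60, edgeR adjusted p = 0.0297, and 1.83, edgeR adjusted p = 0.00163), and the Magi2 calls in stroma and mural cells were lost there (0.45, edgeR adjusted p = 0.532, and 0.45, edgeR adjusted p = 0.61). Without replicate 1 the lower values of Synpo lay between -0.94 and -0.07 in progenitors, early nephron, loop of Henle or distal tubule, duct and intercalated cells, and Ptpro was at -0.67 in early nephron cells. Magi2 in proximal tubule cells was at 1.20 under the 10% limit, and Nphs1 there at 2.49 without replicate 2. Kirrel in ureteric or collecting duct cells was at -0.13 under the 10% limit and at -0.24 at a gate cutoff of 0.1.

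Other proteins of the slit and foot process were followed with a list of 25 partners. Of these, 22 were higher in podocytes than in precursors, 1 was lower and 2 did not pass, with a median of 1.60, where 20.9% of all tested genes were higher and 24.6% lower with a median of -0.08. Ddn, which encodes the foot process protein dendrin, was higher by 5.99 ± 0.30 on the log2 scale, with 256 and 256 CPM in podocytes and 5.46 and 3.46 CPM in precursors. Myo1e, a membrane-linked myosin, was higher by 3.29 ± 0.28 and Nes, the intermediate filament nestin, by 3.17 ± 0.31. Magi1, the paralogue of Magi2, was the 1 that fell, with 145 and 129 CPM in podocytes and 336 and 343 CPM in precursors (-1.16 ± 0.17). Magi2 and Magi1 thus moved in opposite directions between the same classes.

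From progenitors to precursors 9 of the 25 partners were higher, none was lower and 16 did not pass, by edgeR at an adjusted p under 0.05, where 12.7% of all tested genes were higher and 7.72% lower. Kirrel2, a further nephrin relative, passed with 25 and 34 counts in precursors against 1 and 0 in progenitors, a ratio of 104 over both libraries with an exact 95% counting interval of 18.0 to 4190. Ddn was higher by 4.24 ± 0.51, Itga3, the integrin that anchors podocytes to the basement membrane, by 2.12 ± 0.21 and Arhgap24, a GTPase-activating protein, by 1.92 ± 0.33. Against the non-glomerular classes 21 partners were higher in podocytes, 1 was lower and 3 did not pass, against 24.3% and 16.9% of all tested genes higher and lower. Ddn led with 10.22 ± 0.21, Kirrel2 passed with 73 and 50 counts in podocytes and at most 2 in any non-glomerular class of either library, and Magi1 was again lower (-0.75 ± 0.14).

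In endothelium 14 partners were higher, 5 lower and 6 did not pass, where 27.7% of all tested genes were higher and 14.8% lower, so the lower count lay near that of all genes. The leading ones were Slc9a3r2, an ezrin-binding adaptor that links podocalyxin to the cytoskeleton, at 4.96 ± 0.12, Vim at 3.77 ± 0.21, Tjp1, the tight junction protein ZO-1, at 3.35 ± 0.08 and Fyn, a kinase that phosphorylates nephrin, at 3.21 ± 0.11. Arhgap24 was lower, at -3.24 ± 0.32, and so was Fat1, a giant protocadherin of the slit, at -2.64 ± 0.24. Slc9a3r2 had 542 and 591 CPM in endothelium and 354 and 425 CPM in podocytes, and Tjp1 677 and 735 CPM against 888 and 908 CPM.

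The 5 transcription factors of podocytes that served in no gate were all higher in podocytes than in precursors, against 20.9% of all tested genes, with a median of 2.68. Foxd1, the gene that drives Cre here, was higher by 3.22 ± 0.27, with 198 and 197 CPM in podocytes and 20.2 and 27.8 CPM in precursors. Lmx1b, the gene of nail-patella syndrome, was higher by 2.86 ± 0.26, with 291 and 180.3 CPM in podocytes against 48.0 and 25.01 CPM. Of the 5, 2 were higher in precursors than in progenitors, Tcf21 by 1.52 ± 0.31 and Foxc2 by 1.47 ± 0.26, against 12.7% of all tested genes, and none was lower. Against the non-glomerular classes all 5 were higher, against 24.3% of all tested genes, Lmx1b by 7.80 ± 0.21 and Foxd1 by 5.98 ± 0.18. In endothelium none was higher, against 27.7% of all tested genes, and 3 were lower, against 14.8%: Tcf21, Foxc1 and Foxd1.

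The genes whose profile over the 26 class sums was most like the mean of the members, by Pearson correlation across 17009 tested genes, are given as a description, since the sums share libraries and depth. Agrp, an agouti-related peptide, ranked first with r = 0.948 and had 158 and 189.9 CPM in podocytes and 10.8 and 9.34 CPM in precursors. Gja3, a connexin, followed among the better expressed genes with r = 0.936, at 209 and 242 CPM against 13.02 and 12.7 CPM. Mapt, the microtubule protein tau, had r = 0.935, at 694 and 576 CPM against 34.1 and 22.5 CPM. Rab3b, a GTPase of vesicle release, had r = 0.933, at 534 and 421 CPM against 10.9 and 4.73 CPM. The other 6 of the 10 were Rxfp2, Gm14597, Hpca, Gm5144, Pgpep1l and Gm45004, with 2.26 to 46.6 CPM in podocytes. Among the members themselves the correlation with that mean ran from 0.593 for Cd2ap, through 0.733 for Kirrel and 0.779 for Actn4, to 0.939 for Nphs1, each member being part of the mean.

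The libraries agreed unevenly on single members. Nphs1 was 1.48-fold higher in replicate 1 podocytes than in replicate 2, a ratio that 5.86% of the 1962 genes of at least 100 CPM reached or passed in either direction. Ptpro had a ratio of 1.003, Magi2 0.95, Podxl and Cd2ap 0.89, and Synpo 1.20, Kirrel 1.25 and Actn4 1.12. The Nphs1 difference was also seen among the podocytes of highest marker rate, with 3165 CPM in replicate 1 and 1857 CPM in replicate 2. Podocytes of replicate 1 were shallower, at a median of 9237.5 against 13697 UMIs, and their part in this ratio was not tested.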

How the data were processed

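The values of both single-cell libraries were used as deposited: raw UMI counts per gene and barcode over all barcodes, produced by the authors with Cell Ranger, version 6.0.1 on mm10 per the submitters' processing notes and version 4 per the file headers. Per the labels' protocols, the 3′ ends of cDNA were sequenced. Replicate numbers follow accession order. The genes and lists were chosen with earlier results of these data known. Each cell's summed marker UMIs per 10000 were divided by the 99.5 percentile over all cells. A cell entered its highest class at 0.2 or more, with at least 2 markers, at least 3 marker UMIs and the next class at most 0.5 of it. The podocyte gate has 1 further marker that is not reported here. No doublets were removed; an alternative removed 245 and 142 cells by Scrublet score. Low depth gives wide counting error: sums per class and library ran from 274948 to 19311090 UMIs.

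Counts were summed per class and library, 26 sums with 12 residual degrees of freedom, and fitted with edgeR 4.0.16 in R 4.3.3 (TMM, filterByExpr, quasi-likelihood, class and library block, two-sided). Both libraries hold every class, so the block is the library itself. Benjamini-Hochberg adjustment covered the 17017 tested genes that no gate used, at a threshold of 0.05. All members, the called list genes with the 4 largest and 2 most negative fold changes, and the 10 most similar profiles were named. Genes of other small counts were named after their values were seen. On simulated counts for podocytes against precursors, 96% and 98% of genes changed by 3 and -3 on the log2 scale were called, 64% and 38% at 1 and -1, and 0.0386% of 15546 unchanged genes. Python 3.11.15, scanpy 1.11.5 and DESeq2 1.42.0 were also used. Alternatives covered scaling, test, filters, gates, doublets, free RNA (profile of barcodes under 100 UMIs, scaled by haemoglobin to 0.443% to 47.3% of a class; this exceeded the measured count of 25 of 192 member values, so it removes too much in at least 8 of 24 class sums) and thinning. Coordinates are from GENCODE M21 (GRCm38); promoter sequences are from RefSeq (GRCm38.p6).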

Additional observations from a re-analysis of the deposited data

Results flagged for a closer look

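The members were also counted in barcodes outside the comparisons. In cells that passed no gate, their summed level was 596 CPM in replicate 1 and 622 CPM in replicate 2, mostly Cd2ap, Actn4 and Magi2, and 7 and 6 of those cells had a podocyte marker rate of 0.2 or more. In barcodes under 100 UMIs, which hold free RNA, the sum was 1362 CPM in replicate 1 and 978 CPM in replicate 2. No control sample exists for either value, which lies above the limit that a count of 0 allows.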

How the results depend on the processing

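All 8 members stayed higher in podocytes, against precursors and against the non-glomerular classes, under every alternative with a test, including the fit with no replicate block, and Podxl, Synpo and Actn4 stayed higher in endothelium. Between precursors and progenitors 5 to 7 members were higher. Leaving out a library gave values without a test, because 1 library per class leaves no residual degrees of freedom, and no count of calls.

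Endothelial differences near 0 changed sign. Ptpro, 0.06 as reported, was at -0.021 with DESeq2 size factors, -0.12 by the DESeq2 Wald test, -0.55 at a limit of 10% mitochondrial UMIs, -0.68 without Scrublet doublets, -1.17 at a gate cutoff of 0.4 and -6.19 with free RNA subtracted. At the cutoff of 0.4, Cd2ap was at 0.017 and Kirrel at 0.14, and 2 members were lower in place of 1; with free RNA subtracted 0 were lower. Nphs1, at -0.31, was at 1.08 without replicate 2, with no test. The subtraction removed more than the measured count of 25 of 192 member values, among them Nphs1, Magi2 and Ptpro in both endothelial libraries, so its values are no estimate there. In the other non-glomerular classes 20 of 42 calls were lost under at least 1 alternative and 4 changed sign. Those were Podxl (1.60) and Magi2 (1.83) in intercalated cells at 10% mitochondrial UMIs and, with free RNA subtracted, Magi2 in intercalated (0.88) and mural cells (-10.70) and Podxl in early nephron cells (0.14). The cause was not tested.

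Counts of list genes moved as follows. Of the transcription factors, 1 was lower in endothelium at 10000 UMIs and 1 at 10% mitochondrial UMIs, in place of 3. In precursors against progenitors, 1 was lower at a gate cutoff of 0.1 and 1 with precursors under 0.1 of the podocyte rate, in place of 0, and 0 were higher with free RNA subtracted, in place of 2. Of the partners in that comparison, 1 was lower at a cutoff of 0.1, 1 without the erythroid class and 1 by the DESeq2 Wald test, which called 14 higher in place of 9. With free RNA subtracted 0 partners were lower in podocytes than in the non-glomerular classes, in place of 1, and 3 in endothelium, in place of 5. The cause was not tested.

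Shares of podocytes with a UMI, as the mean of both libraries, moved with depth by construction. Thinned to 1000 UMIs, thinned to 10000 and unthinned, they were 85.2%, 98.4% and 99.4% for Nphs1, 89.7%, 98.4% and 99.3% for Podxl, and 43.0%, 94.8% and 97.3% for Synpo. They were 56.9%, 99.7% and 99.6% for Cd2ap, 18.0%, 82.3% and 84.5% for Kirrel, and 40.7%, 99.4% and 98.4% for Actn4. Ptpro was at 84.4% thinned to 1000 and 98.7% unthinned, and Magi2 at 98.3% and 99.0% thinned to 1000 and 10000.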
